A study of Mus musculus with 28 samples.

Results

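The pairs described here are contacts between 2 captured promoter fragments in Promoter Capture Hi-C (PCHi-C) of mouse C10 cells. PCHi-C enriches Hi-C ligation products that hold a HindIII fragment with a promoter, called the bait, and lists the fragments found ligated to it more often than the background at that distance. A fragment was counted as a bait if it stood as the first fragment of an interaction in any of the 4 deposited lists. A pair was taken when both of its fragments were baits, lay on the same chromosome and were listed together in at least 1 list, and each pair was counted once whichever end it was listed from. This gave 40395 pairs of baits among 272116 listed fragment pairs on a single chromosome, and 15681 of the 18175 baits took part in at least 1 of them. The other 231721 pairs joined a bait to a fragment that was not a bait.

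C10 is a Pre-B cell line derived from HAFTL cells that carries a CEBPalpha-ER transgene, a fusion of the transcription factor C/EBPα with the hormone-binding part of the estrogen receptor. All cells of the series carry this transgene, the 0h cells included. Cells were collected uninduced (0h) and after 1h, 12h or 48h in 100 nM β-estradiol together with 10 nM IL-3 and with CSF-1, the growth factor of macrophages, with 3 RNA-seq libraries per time point and 2 PCHi-C libraries per time point that the authors merged into 1 list. C10 is a single cell line in culture, the transgene is of rat origin, and its level is not that of the endogenous factor.

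Promoters of active genes often come close to each other in the nucleus, and a promoter can act on another promoter as an enhancer does. CTCF, a DNA-binding protein that stops the cohesin ring as it extrudes chromatin, favours contacts between sites whose motifs point towards each other. C/EBPα drives myeloid genes, and in Pre-B cells it shuts down the lymphoid program while chemokines, matrix metalloproteinases and other macrophage genes come on. Many of these myeloid genes lie in clusters of related neighbours, so that promoter pairs inside a cluster join genes of similar function.

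The sequence of the baits was read from the GRCm38 (mm10) genome. The HindIII site stood at both ends of 100% of them. The CTCF core consensus, searched on both strands of the whole fragment, was present in 6.65% of the 18175 baits, in 7.09% of the baits of pairs and in 3.89% of the 2494 baits outside pairs. The 3 pairs of sites below belong to the pairs with the highest 48h values among those 100 to 500 kb apart, listed at all 4 time points, with motifs that point towards each other, and were chosen after their values were seen. Each line gives the forward strand of the chromosome, with the motif in capitals, and the second site of each pair holds the motif on the reverse strand.
Sorbs2os, chr8:45817171-45817200: cactgaccaCCACTAGGTGGCgatggggtg
Ccdc110, chr8:45934942-45934971: tcatagcgcGCCCTCTGGTGGccacagagg
Fibp, chr19:5463935-5463964: tgaaggtgaCCAGCAGGTGGCactgctgct
Ap5b1, chr19:5568361-5568390: gacctgggcGCCCTCTAGTGGccgtaaagg
Parp10, chr15:76239268-76239297: tcacattggCCACCAGATGGCaccaactgt
Sharpin, chr15:76344644-76344673: tggcgtaccGCCACCTGGTGGgagtgtgct

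The second set of sequences is the 250 bases before the start site of 6 genes whose pairs showed some of the largest changes in expression described further on. They are RefSeq promoters on GRCm38.p6, printed 5′ to 3′ on the strand of the gene. Capitals mark any of 4 motifs, each searched on both strands. The first is TATAAA, which general transcription factors read near the start of tightly regulated genes. The second is CCAAT, a box read by the factor NF-Y. The third is GGGCGG, the GC box read by Sp factors. The last is TTNNGCAA, a form of the element that C/EBP factors read. The start site of the table can differ from that of the annotation by a few bases. Mmp13, Mmp12, Mmp8 and Itgam lie on the forward strand, and Ccl9 and Ccl6 on the reverse strand.
Mmp13, chr9:7272264-7272513: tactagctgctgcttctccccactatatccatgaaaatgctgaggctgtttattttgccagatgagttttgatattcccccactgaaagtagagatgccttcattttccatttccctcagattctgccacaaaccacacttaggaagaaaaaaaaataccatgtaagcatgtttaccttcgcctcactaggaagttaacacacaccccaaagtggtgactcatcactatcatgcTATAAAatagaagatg
Mmp12, chr9:7344147-7344396: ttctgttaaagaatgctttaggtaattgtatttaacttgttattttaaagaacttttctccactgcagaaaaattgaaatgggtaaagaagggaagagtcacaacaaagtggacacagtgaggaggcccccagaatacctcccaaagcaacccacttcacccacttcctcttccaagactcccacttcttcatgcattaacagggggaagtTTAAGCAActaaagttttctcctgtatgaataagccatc
Mmp8, chr9:7558179-7558428: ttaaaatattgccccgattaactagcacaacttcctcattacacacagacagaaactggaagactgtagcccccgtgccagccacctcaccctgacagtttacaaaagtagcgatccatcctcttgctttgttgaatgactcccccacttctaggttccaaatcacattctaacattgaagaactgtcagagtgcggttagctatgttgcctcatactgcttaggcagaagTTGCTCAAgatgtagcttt
Ccl9, chr11:83578637-83578886: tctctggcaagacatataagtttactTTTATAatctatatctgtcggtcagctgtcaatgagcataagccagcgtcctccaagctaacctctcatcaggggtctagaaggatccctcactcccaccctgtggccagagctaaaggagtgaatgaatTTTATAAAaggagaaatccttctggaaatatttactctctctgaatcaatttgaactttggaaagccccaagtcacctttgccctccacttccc
Ccl6, chr11:83593088-83593337: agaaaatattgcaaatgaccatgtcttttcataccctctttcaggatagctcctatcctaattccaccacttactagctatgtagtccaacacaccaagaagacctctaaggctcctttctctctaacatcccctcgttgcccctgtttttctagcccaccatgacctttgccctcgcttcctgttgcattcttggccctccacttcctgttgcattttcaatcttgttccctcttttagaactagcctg
Itgam, chr7:128062390-128062639: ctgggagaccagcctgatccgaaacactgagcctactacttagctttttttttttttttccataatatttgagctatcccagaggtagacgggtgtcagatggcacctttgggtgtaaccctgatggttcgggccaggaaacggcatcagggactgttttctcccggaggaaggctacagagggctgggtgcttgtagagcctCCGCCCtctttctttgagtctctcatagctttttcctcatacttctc

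Of the 32851 RefSeq promoters (300 bases each), 12.4% held the TATA box TATAAA and 33.8% held the box named CCAAT. The GC box GGGCGG was present in 32.7% of them and the C/EBP form TTNNGCAA in 9.56%. A promoter was found in this table for 10746 of the 17792 baits with a gene. The GC box was more frequent in the 9534 promoters of pairs (50.6%) than in the 1212 promoters of baits outside pairs (41.7%), and the TATA box (10.1% against 12.9%) and the C/EBP form (8.19% against 10.1%) were less frequent, whereas the CCAAT box was at 35.4% and 34.1%. The median GC content of the promoters was 57.6% in pairs and 54.8% outside them. Among baits 50-100 kb apart, both promoters held a GC box in 29.8% of the listed pairs (95% Wilson interval 28.0% to 31.7%) and in 23.0% of the pairs that no list held (21.8% to 24.3%), and the listed share was the higher one in all 6 distance classes.

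In the order 0h, 1h, 12h, 48h, which holds for every series of 4 values below, the lists held 22787, 23881, 22775 and 20308 pairs of baits. These were 16.5%, 17.4%, 17.4% and 14.2% of the 137889, 136981, 130919 and 143454 fragment pairs listed on a single chromosome. The 48h list was thus the longest in all and the shortest in pairs of baits. The 0h list gives a CHiCAGO score, of which 5 was the lowest, and the 3 later lists give whole numbers, taken as read pairs, so the later values were not compared with those of 0h. The median 0h score was 7.17 for pairs of baits and 6.74 for pairs with 1 bait, and the median values at 1h, 12h and 48h were 18, 15 and 16 read pairs against 17, 14 and 15. The sequencing depth of the PCHi-C libraries was not used here, and with 1 merged list per time point there was no replicate error, so the intervals below cover counting error only.

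The 2 baits of a pair lay 195 kb apart in the median, with quartiles of 94.7 and 345 kb and a range from 2.79 kb to 97589 kb. By time point the median was 187 kb, 181 kb, 156 kb and 162 kb in time order, against 190.5, 185, 171 and 179 kb for pairs with 1 bait. Pairs of baits thus shortened more between 0h and 12h than pairs with 1 bait. Pairs at least 1 Mb apart numbered 675, 542, 272 and 276 in time order.

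All combinations of 2 baits on the same chromosome served as the background of the distance. Of those under 50 kb apart, 30.5% were listed at some time point, as were 33.0% of those at 50-100 kb, 31.5% at 100-200 kb, 18.0% at 200-500 kb, 3.18% at 500-1000 kb and 0.0132% at 1 Mb or more. The share was nearly level to 200 kb and fell beyond. Within 50 kb it was highest at 12h, with 22.7% against 18.0% at 0h and 17.8% at 48h. Between 500 and 1000 kb it went down in time order, with 1.66%, 1.54%, 1.13% and 1.08%.

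**Figure D1:**
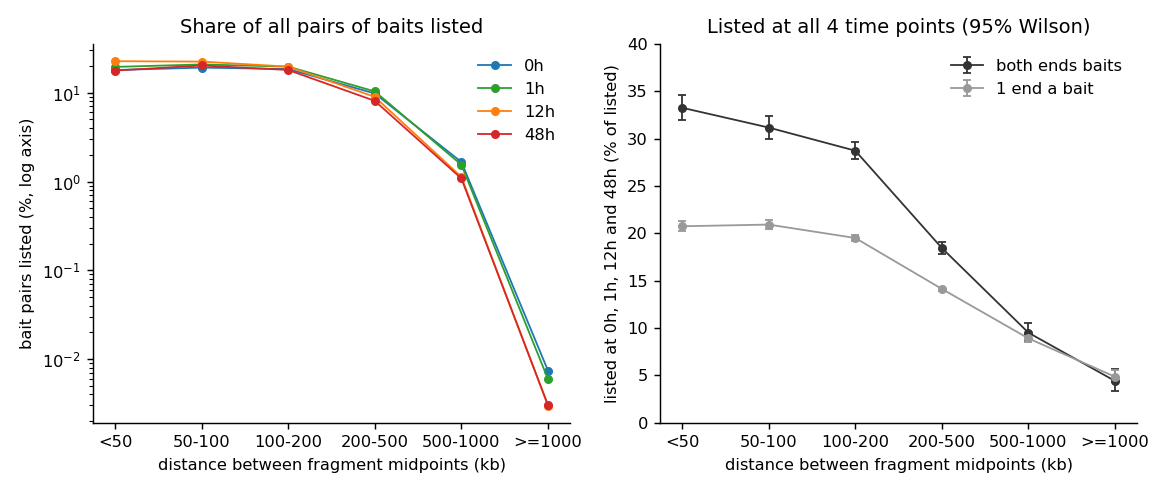
Left, share of all combinations of 2 baits on the same chromosome that each list held (%, log axis) by distance in kb, 1 line per time point. Right, share of listed pairs that stood in all 4 lists (%) by distance, for pairs of baits and for pairs with 1 bait, with 95% Wilson intervals. The left curves are nearly level to 200 kb and fall by orders of magnitude at 1 Mb or more, and in the right panel pairs of baits lie above pairs with 1 bait up to 500 kb (33.3% against 20.8% under 50 kb) and meet them beyond.

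Pairs of baits were found in all lists more often than pairs with 1 bait. All 4 lists held 9435 of the 40395 pairs (23.4%, 95% Wilson interval 22.9% to 23.8%), against 16.6% (16.5% to 16.8%) of the pairs with 1 bait, and 16250 pairs (40.2%) stood in a single list, against 48.6%. Pairs in a single list numbered 4242, 4624, 4065 and 3319 in time order. The share of pairs of baits in all 4 lists was 40.3% with matching within 10 kb. It was 11.4% when a 0h listing counted only from a score of 10, with pairs of the later lists kept in the total. Of the pairs with a 0h score of 10 to 20, 75.4% stood in all 4 lists, as did 95.3% of those with 20 or more. The more lists held a pair, the closer its baits were, with median distances of 255 kb for 1 list, 199 kb for 2, 168 kb for 3 and 139 kb for all 4. The share in all 4 lists fell from 33.3% under 50 kb to 28.7% at 100-200 kb, 18.5% at 200-500 kb and 9.51% at 500-1000 kb, where pairs with 1 bait stood at 8.91%. A pair of baits can be called from either end and a pair with 1 bait from 1 end only, and the part of this in the difference was not tested.

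Of the 0h pairs of baits, the lists of 1h, 12h and 48h held 66.7%, 61.3% and 57.4%, against 55.8%, 51.6% and 55.6% of the pairs with 1 bait. Pairs of baits were thus lost steadily, while pairs with 1 bait were lower at 12h than at 48h. At 48h the 95% intervals were 56.7% to 58.0% and 55.4% to 55.9%. The order changed with distance. Of the 0h pairs under 50 kb, 69.4% of the pairs of baits and 57.0% of the pairs with 1 bait were listed at 48h, but at 200-500 kb the shares were 51.3% and 51.9%, and at 500-1000 kb 35.0% (32.9% to 37.2%) of the pairs of baits against 41.2% (40.2% to 42.3%). At 1 Mb or more they were 18.4% and 24.8%. Read from the other side, 64.4% of the 48h pairs of baits had already stood in the 0h list, against 52.0% of the 48h pairs with 1 bait.

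The strength of a contact went with its persistence. Of the pairs of baits with a 0h score of 5 to 10, 48.8% were listed at 48h, and the shares were 84.0% for scores of 10 to 20 and 96.9% for scores of 20 or more. At the same scores, pairs with 1 bait were at 48.4%, 87.1% and 98.1%, so in no class of score were pairs of baits listed at 48h more often by a margin clear of the intervals (for scores of 10 to 20 the intervals were 82.9% to 85.1% and 86.6% to 87.6%). At 1h, 33.8% of the pairs were listed from both ends, and 72.1% of these stood in the 48h list, against 45.9% of those listed from 1 end. At 12h the same shares were 77.3% and 48.7%. These levels and the lists come from the same libraries.

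The arrangement of CTCF motifs differed between listed and unlisted combinations of baits 100 to 500 kb apart. Among baits 200-500 kb apart that each held the core consensus in a single orientation, the 2 motifs pointed towards each other in 40 of 98 listed pairs (40.8%, 95% Wilson interval 31.6% to 50.7%) and in 98 of 434 unlisted ones (22.6%, 18.9% to 26.7%). They pointed away from each other in 12 listed pairs (12.2%, 7.15% to 20.2%) and in 135 unlisted ones (31.1%, 26.9% to 35.6%). At 100-200 kb the divergent share was again lower in listed pairs, 7 of 85 (8.24%) against 35 of 124 (28.2%), but the convergent shares of 28.2% and 22.6% had overlapping intervals. At 50-100 kb the shares had overlapping intervals, with 26.9% divergent and 28.8% convergent in 52 listed combinations and 27.1% and 25.7% in 70 unlisted ones. Under 50 kb convergent motifs were found in 9 of 45 listed and 9 of 57 unlisted combinations. Pairs with both motifs were few, and the share listed at all 4 time points did not separate the arrangements at 100-500 kb, with 18 of 64 convergent (28.1%, 18.6% to 40.1%), 25 of 100 same-strand and 5 of 19 divergent pairs (26.3%), against 22.6% of 24572 pairs without such motifs.

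**Figure D2:**
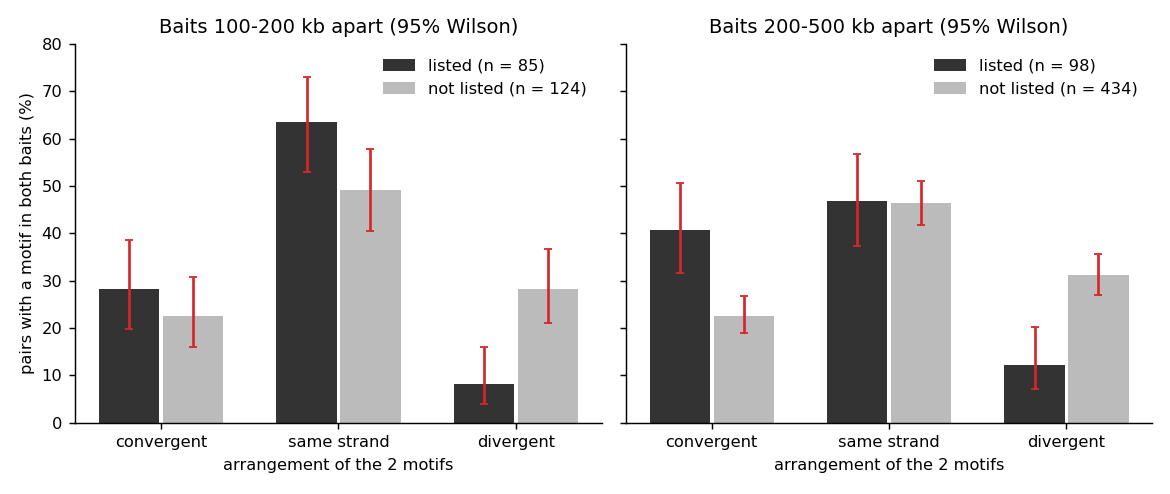
Share (%) of combinations of 2 baits that each hold the CTCF core consensus in a single orientation, by the arrangement of the 2 motifs, for listed and unlisted combinations 100-200 kb (left) and 200-500 kb (right) apart. Bars start at 0 and red lines are 95% Wilson intervals. Listed pairs hold fewer divergent motifs in both panels (8.24% against 28.2% and 12.2% against 31.1%) and more convergent ones at 200-500 kb (40.8% against 22.6%).

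The pair whose first 2 sites are printed above joined the baits of Sorbs2os and Ccdc110 on chromosome 8, 117 kb apart. Its 0h score was 39.45 and its values were 61, 66 and 136 read pairs at the later times. The pair of Fibp and Ap5b1 on chromosome 19 lay 101 kb apart, with a 0h score of 8.94 and 72, 44 and 62 read pairs. That of Parp10 and Sharpin on chromosome 15 lay 108 kb apart, with a 0h score of 9.33 and 52, 40 and 36 read pairs. The depth of each list was not used here, so a rise or fall of these numbers between lists was not read as a change in contact frequency.

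Baits with a promoter partner had 4 of them in the median, and 2137 (13.6%) had 10 or more. Joined through shared baits, the pairs formed 938 networks, of which the largest held 629 baits over all lists, 254, 419, 151 and 112 in time order. Baits with 10 or more partners numbered 755, 890, 610 and 419 in time order. The 48h list was therefore more split up than the 0h list, with 1565 networks against 1193. The bait with most partners was that of Pmis2 on chromosome 7, a gene for a sperm protein that was listed at 0 TPM in all 12 libraries. It had 46, 44, 34 and 37 promoter partners in time order, and 31 of its 47 partners stood in all 4 lists. The bait of the hair keratin gene Krt33a on chromosome 11 had 45 partners and that of the predicted keratin-associated gene Gm11555 had 40, both also at 0 TPM in every library, but only 3 and 4 of them were found at all 4 time points. Tomm40, which encodes the pore of mitochondrial protein import, had 43 partners on chromosome 7, from 37 at 0h to 19 at 48h, and its own level went from 12.6 ± 2.14 to 2.01 ± 0.720 scaled TPM (SD, n = 3 each). Chromosome 7 held the most pairs of all (5322), followed by chromosome 11 (4311). They held 1520 and 1574 baits, and 27.2% and 21.1% of their combinations of baits under 500 kb apart were listed.

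For expression, the deposited TPM (the abundance of transcripts relative to the rest of the library, corrected for length) were divided by a median-of-ratios size factor, since TPM depend on how much of a library a few abundant genes take, and are called scaled TPM. A bait stood for the gene with a transcription start in it that had the highest mean scaled TPM. Of the 40395 pairs, 1227 had no gene at one end, 248 had the same gene at both ends, 17683 had a gene below the filter (a mean of 0.1 scaled TPM) and 21237 joined 2 different tested genes, 8493 genes in all. The labels were checked with marker genes, and the summed scaled TPM of 10 Pre-B markers was 327 to 352 at 0h and 42.9 to 51.1 at 48h, and that of 8 macrophage markers was 3.98 to 4.93 and 303 to 357. Erythroid and fibroblast markers were at 0 in all libraries and the 4 T cell markers summed to at most 0.125. In bulk samples, a lower level can mean fewer cells that express a gene or less RNA per cell, and these cannot be told apart. The transgene was checked through Cebpa, whose row does not tell rat from mouse reads, and its level was 23.7 ± 4.50 scaled TPM in the 0h libraries and 15.2 ± 9.58 in those of 48h (SD, n = 3 each), and the libraries of these time points overlapped.

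Promoters of expressed genes were listed together more often than those of other genes. In this comparison, expressed means a mean of 1 scaled TPM or more over all 12 libraries, whatever the level at a single time point. Among combinations of baits under 500 kb apart, 37.0% of those with both genes at a mean of 1 scaled TPM or more were listed (11741 of 31694, 95% Wilson interval 36.5% to 37.6%), against 20.99% with 1 such gene (20.7% to 21.3%) and 19.4% with none (19.0% to 19.7%). The order of both and neither held in each distance class under 500 kb, from 44.6% against 21.4% under 50 kb to 27.8% against 16.2% at 200-500 kb. At 200-500 kb combinations with 1 expressed gene (14.7%) were below those with none (16.2%). The gap narrowed between the lists, with the same classes of genes at each time point. The 0h list held 24.3% of combinations with both genes expressed and 8.98% with neither, and the 48h list 19.3% and 10.3%.

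Persistence followed the level in 1 way and not in another. Pairs in all 4 lists made up 29.9% (29.1% to 30.7%) of the listed pairs with both genes expressed, 25.3% with 1 and 19.9% (19.1% to 20.7%) with neither. Of the pairs listed at 0h, however, 59.4% (58.3% to 60.5%), 61.2% (60.1% to 62.3%) and 62.1% (60.6% to 63.5%) were listed again at 48h. Pairs of expressed promoters were thus not kept more often to 48h once listed at 0h.

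**Figure D3:**
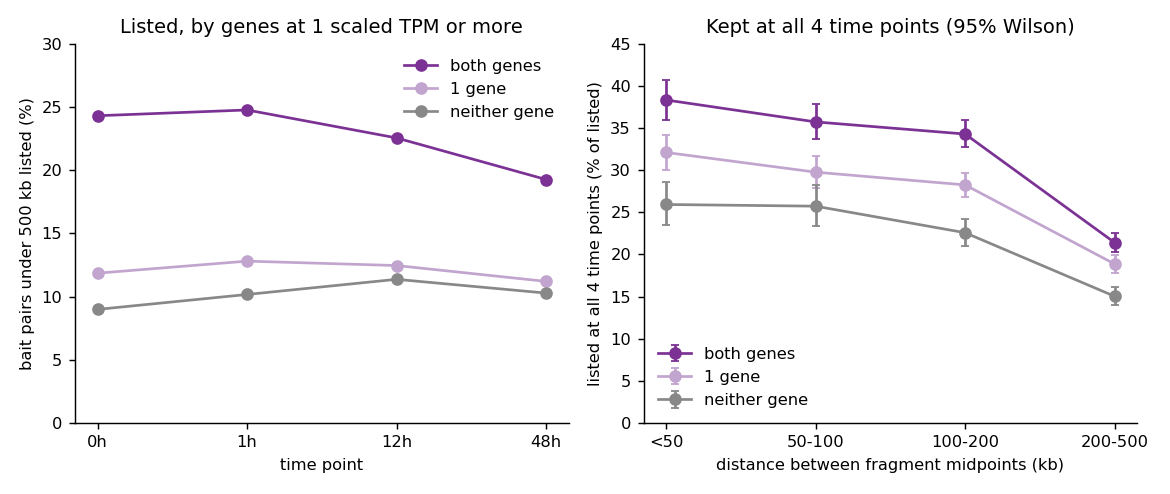
Left, share (%) of combinations of 2 baits under 500 kb apart that each list held. They are split by whether both genes, 1 gene or neither had a mean of 1 scaled TPM or more over all 12 libraries. Right, share (%) of listed pairs found in all 4 lists by distance, with 95% Wilson intervals. The line of pairs with both genes expressed runs above the others at all 4 time points and comes down from 24.3% at 0h to 19.3% at 48h, while that with neither gene is at 8.98% and 10.3%.

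Counted in each library against the list of its own time point, both genes were at 1 scaled TPM or more in 38.3% ± 0.564, 34.9% ± 0.617, 31.9% ± 0.669 and 28.5% ± 1.19 of the pairs in time order (SD, n = 3 libraries each). The libraries of no 2 time points overlapped, with 37.7% to 38.8% at 0h and 27.8% to 29.8% at 48h. In combinations under 500 kb that no list held, the shares were 16.7% ± 0.384, 16.2% ± 0.460, 16.7% ± 0.416 and 15.4% ± 0.952, a narrower range than in the listed pairs. The members of the lists also change between time points, and the parts of this and of expression were not separated. Without scaling between libraries, 1h (39.9%) stood above 0h (37.1%), and 48h stayed the lowest (23.5%).

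A gene was called when limma gave a Benjamini-Hochberg adjusted p under 0.05 over all genes tested and the log2 fold change lay beyond 1. At 48h, 1642 of the 8903 tested genes that stood for a bait of a pair were higher than at 0h and 2068 were lower (18.4% and 23.2%). Of all 16212 tested genes 20.1% were higher and 17.8% lower. At 12h 1052 were higher and 1105 lower (11.8% and 12.4%, against 12.1% and 9.52% of all genes), and at 1h 300 were higher and 351 lower (3.37% and 3.94%, against 4.05% and 2.86%). Genes of promoter pairs were thus called lower more often and higher less often than all genes at each time point. They were also more abundant, with a median of 2.65 scaled TPM against 1.40 for all tested genes, and the part of this in the difference was not tested. The choice of the most abundant gene of a bait favours a higher median, since 4640 baits of pairs held several genes. Their median log2 fold change at 48h was -0.06, against 0.09 for all genes. The split rests on the scaling. Without it, 1339 were higher and 125 lower at 1h (91.5% higher, against 46.1%), 1600 and 660 at 12h (70.8% against 48.8%) and 1114 and 2735 at 48h (28.9% against 44.3%), and with TPM rescaled without the 20 most abundant genes 353 were higher and 234 lower at 1h (60.1%).

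Both genes of a pair were called at 48h in 3724 of the 21237 pairs with tested genes. Both were higher in 675, both lower in 1459 and they went opposite ways in 1590, so 57.3% went the same way (95% Wilson interval 55.7% to 58.9%). Of pairs in which the symbols of the genes that stand for the baits share their leading letters, 73 were both higher and 77 both lower among 155 (96.8% the same way), and of all other pairs 55.6% (54.0% to 57.2%). A few clusters weigh on the first share, since 56 of the 77 joined 2 Hist1 genes and 16 of the 73 joined 2 Slfn genes. Among pairs listed at all 4 time points the share was 61.7% (58.6% to 64.7%). At 12h, 313 pairs had both genes higher, 439 both lower and 544 opposite (58.0% the same way), and at 1h 23, 61 and 28 (75%). In the distance classes under 500 kb, the 12h shares were 68.3%, 61.1%, 56.9% and 50.3% in listed pairs. They were 68.2%, 53.9%, 51.2% and 49.8% in unlisted combinations. The 1h shares were 80%, 92.6%, 73.3% and 65.8% in listed pairs, from 10 to 38 pairs each. In unlisted combinations they were 81.0%, 73.1%, 61.1% and 60.6%. A gene can stand in many pairs, so pairs are not independent.

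At 48h the share going the same way was higher in listed pairs than in unlisted combinations in the 5 distance classes under 1 Mb. Genes of pairs were called lower more often than higher (23.2% and 18.4%), which by itself lifts such a share above 50%. The part of this in the difference was not tested. The shares were 63.1% (58.7% to 67.2%) against 59.4% (55.7% to 63.1%) under 50 kb, 54.7% against 51.6% at 50-100 kb, 58.7% against 52.8% at 100-200 kb, 54.4% against 51.5% at 200-500 kb and 61.6% (56.5% to 66.5%) against 50.6% (49.4% to 51.8%) at 500-1000 kb. The listed share was above the unlisted one in these 5 classes under all 3 scalings, but the intervals were clear of each other only at 500-1000 kb. This order did not hold throughout. At 1 Mb or more the 48h shares were 54.2% and 50.7%, or 49.7% and 50.6% without pairs that share leading letters. At 12h under 50 kb they were 68.3% and 68.2% (62.7% and 63.5% without such pairs), and at 1h 500-1000 kb apart 50% of 6 listed and 59.2% of 211 unlisted combinations went the same way. The correlation of the 2 genes over the 12 libraries, which share 4 time points, was widely spread around a median near 0. In the 5 classes under 1 Mb, r was over 0.7 in 10.1% to 14.6% of the listed pairs. It was over 0.7 in 8.79% to 12.4% of the unlisted combinations, so such values were not particular to listed pairs. The median over listed pairs was r = 0.07, and by distance it was 0.13, 0.07, 0.08, 0.05 and 0.07, against 0.09, 0.04, 0.03, 0.03 and 0.03 in unlisted combinations. Without scaling the median over listed pairs was 0.39.

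**Figure D4:**
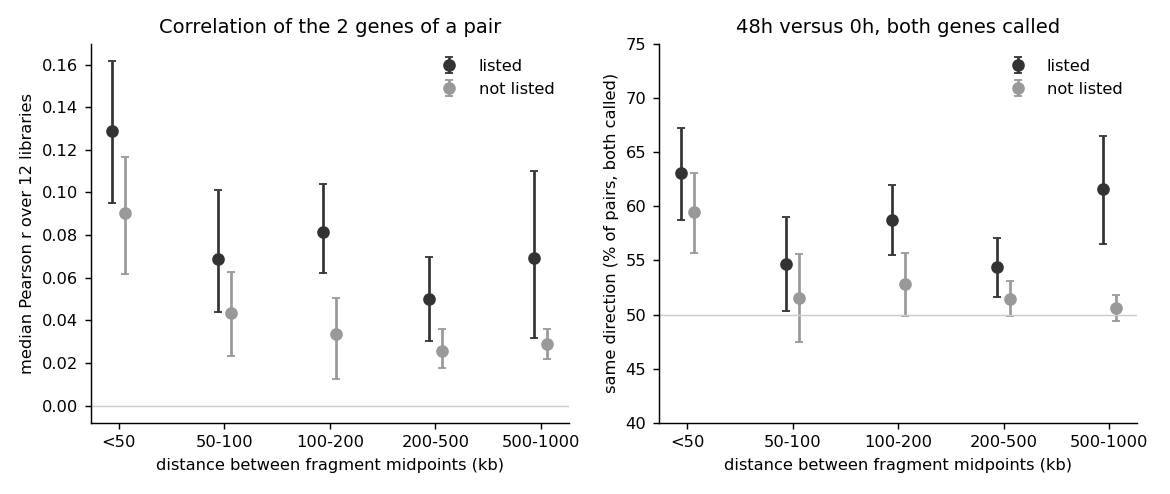
Left, median Pearson r (with its 95% order-statistic interval over pairs) between the 2 genes of a combination of baits over 12 libraries, on log2(scaled TPM + 0.1), for listed and unlisted combinations by distance. Right, share (%) of combinations with both genes called at 48h that went the same way, with 95% Wilson intervals (the axis starts at 40% and the grey line marks 50%). Listed pairs lie above unlisted ones in all 5 distance classes of both panels, with medians of 0.13 against 0.09 under 50 kb and shares of 61.6% against 50.6% at 500-1000 kb.

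Pairs that appeared and pairs that went differed in expression. For 2916 pairs with tested genes listed at 48h and not at 0h, the median over pairs of the mean log2 fold change of the 2 genes was 0.01 (95% interval -0.05 to 0.05), whereas it was -0.26 (-0.29 to -0.23) for 5908 pairs listed at 0h and not at 48h and -0.25 (-0.28 to -0.23) for 7523 pairs listed at both. The pairs lost thus differed little from the pairs kept, and the pairs gained stood apart from both. Both genes were higher in 4.90% of the pairs gained and 2.79% of those lost, and both were lower in 4.84% and 7.26%. Pairs listed only at 12h and 48h, 599 with tested genes, had a median of 0.12 (0.03 to 0.21), and both genes were higher in 7.35% of them.

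The pair with the largest joint increase at 48h joined Mmp13 and Mmp12 on chromosome 9, whose promoters are printed above. Mmp13 encodes a collagenase and Mmp12 the macrophage elastase. Mmp13 was at 0, 0 and 0.0238 scaled TPM at 0h and at 160, 154 and 120 at 48h, and Mmp12 at 0, 0 and 0.0238 and at 781, 802 and 544. All 48h libraries lay far above all 0h libraries. The log2 fold changes on log2(scaled TPM + 0.1), a scale that understates low genes, were 10.38 (SE 0.23, adjusted p = 1.59e-10 from limma, Benjamini-Hochberg) and 12.67 (SE 0.20, adjusted p = 3.96e-11). Their baits lay 68.9 kb apart and were not listed together at 0h, but were listed from both ends at 1h, 12h and 48h, with 40, 21 and 60 read pairs.

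Mmp8, the neutrophil collagenase, lies further along the same cluster. It was listed at 0 in all 0h libraries and stood at 0.199, 0.177 and 0.211 scaled TPM at 1h, at 7.58, 5.25 and 5.08 at 12h and at 57.7, 60.3 and 37.5 at 48h. Its bait was listed with that of Mmp13, 283 kb away, at all 4 time points (0h score 5.85, then 16, 16 and 23 read pairs) and with that of Mmp12, 214 kb away, also at all 4 (5.09, then 12, 16 and 22). These contacts were thus listed in the uninduced cells, where Mmp8 was listed at 0. Within the Mmp genes there were 23 pairs, with 8, 14, 16 and 17 of them in time order. In all 5 pairs with 2 tested genes both were higher at 48h, against 3.18% of all pairs with tested genes. Of the 9 tested Mmp genes 7 were higher and 1, Mmp11, was lower (of all tested genes 20.1% were higher and 17.8% lower), with a median log2 fold change of 2.72 against 0.09 over all genes.

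The chemokine genes Ccl9, Ccl6 and Ccl3 formed the next group, on chromosome 11. Ccl9 went from 0.485, 0.467 and 0.0834 scaled TPM at 0h to 147, 169 and 138 at 48h, and was already at 63.5, 65.5 and 71.1 at 12h. Ccl6 was at 0.107, 0 and 0.179 at 0h, at 3.52, 4.30 and 2.83 at 12h and at 69.9, 77.6 and 76.8 at 48h. Ccl3, which encodes MIP-1α, and Ccl9 were both called higher at 1h. Ccl3 went from 2.44, 0.761 and 1.87 at 0h to 10.2, 11.4 and 10.1 at 1h. The 1h libraries of Ccl3 lay above all 0h libraries (log2 fold change 2.71, SE 0.34, adjusted p = 0.000480 from limma, Benjamini-Hochberg), and so did those of Ccl9, at 2.28, 3.77 and 1.61 (log2 fold change 2.67, SE 0.41, adjusted p = 0.00192). Ccl9 and Ccl6, 16.1 kb apart, were listed together at all 4 time points (0h score 7.13, then 124, 95 and 88 read pairs), as were Ccl9 and Ccl3, 75.1 kb apart (6.30, then 38, 34 and 27). Of the 8 pairs within the Ccl genes, 3 stood in the 0h list, 4 in the 1h list, 6 in the 12h list and all 8 in the 48h list. All 7 tested Ccl genes were called higher at 48h, against 20.1% of all tested genes. Both genes were thus higher in all 4 Ccl pairs with 2 tested genes, against 3.18% of all pairs with tested genes. This count follows from the gene calls and says nothing on the contacts. The pairs of Ccl7 with Ccl12 and with Ccl8 were listed at 48h only, with 32 and 29 read pairs. These pairs were named after their values were seen.

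Several pairs joined interferon-response genes. Ifi207 and Ifi202b, members of the p200 family that includes DNA sensors, lie 240 kb apart on chromosome 1 and were listed at 1h, 12h and 48h with 14, 8 and 21 read pairs. Ifi202b was listed at 0 in all 0h libraries and at 167, 176 and 101 scaled TPM at 48h, and Ifi207 went from 0, 0.0435 and 0 to 62.9, 60.7 and 40.1. Ifitm1 and Ifitm3, which block virus entry, are 38.4 kb apart on chromosome 7, were listed from 1h on (61, 45 and 50 read pairs) and were at 0 in all 0h and 1h libraries. At 48h Ifitm1 was at 22.7, 22.2 and 23.9 and Ifitm3 at 33.1, 34.3 and 45.9. Ifit3 and Ifit1, which bind viral RNA, were listed together at 48h only, 56.6 kb apart with 31 read pairs, and reached 41.0, 40.6 and 41.7 and 16.3, 16.3 and 13.3 scaled TPM, from at most 0.0873 at 0h.

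The Schlafen genes, immune regulators that restrict growth and viruses, made 18 pairs on chromosome 11, with 8, 9, 16 and 11 in time order. In 16 of the 18 both genes were higher at 48h, and the other 2 held the antisense gene Slfn5os, which did not pass the test. Among all pairs with tested genes, 3.18% had both higher. Of the 9 tested Slfn genes 8 were called higher, against 20.1% of all tested genes, so the count of pairs follows from the gene calls. Slfn5 went from 0.145, 0.380 and 0.369 scaled TPM at 0h to 110, 113 and 80.7 at 48h and Slfn2 from 0.194, 0 and 0 to 28.5, 29.2 and 34.3. Their baits, 112 kb apart, were listed at 1h and 12h (21 and 17 read pairs) but not at 48h. Slfn1 and Slfn4 were listed at 0 in all 0h libraries, were at 23.9, 21.4 and 17.7 and at 13.2, 12.8 and 11.1 at 48h, and their pair of 68.0 kb was listed at 12h and 48h. The Gbp genes, interferon-induced GTPases, made 6 pairs between Gbp5, Gbp7, Gbp3 and Gbp2 within 126 kb, and all 6 stood in all 4 lists. All 9 tested Gbp genes were called higher at 48h, and so both genes were higher in all 6 pairs. The pair of Gbp5 and Gbp2 had a 0h score of 34.78, although Gbp5 had a mean of 0.165 scaled TPM at 0h and 5.30 at 48h and Gbp2 of 0.265 and 4.73.

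Cd300lb and Cd300ld, myeloid receptors of the immunoglobulin superfamily on chromosome 11, were listed together at 0h (score 5.23), 12h and 48h (52 and 112 read pairs), 54.5 kb apart. Cd300lb went from 0.0582, 0 and 0.0238 scaled TPM at 0h to 2.53, 3.84 and 2.42 at 12h and 8.70, 9.81 and 9.09 at 48h, and Cd300ld from 0, 0 and 0.0714 to 2.18, 3.45 and 2.39 and to 13.8, 14.0 and 10.9. The Clec4 genes, C-type lectin receptors, made 14 pairs up to 366 kb apart, with 5, 3, 5 and 9 in time order. All 4 tested Clec4 genes were called higher at 48h, against 20.1% of all tested genes. Both genes were thus higher in the 3 pairs with 2 tested genes, against 3.18% of all pairs with tested genes. Values of the Clec4 pairs were small, with 24 read pairs at 48h for Clec4b2 and Clec4n as the largest of the later lists.

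**Figure D5:**
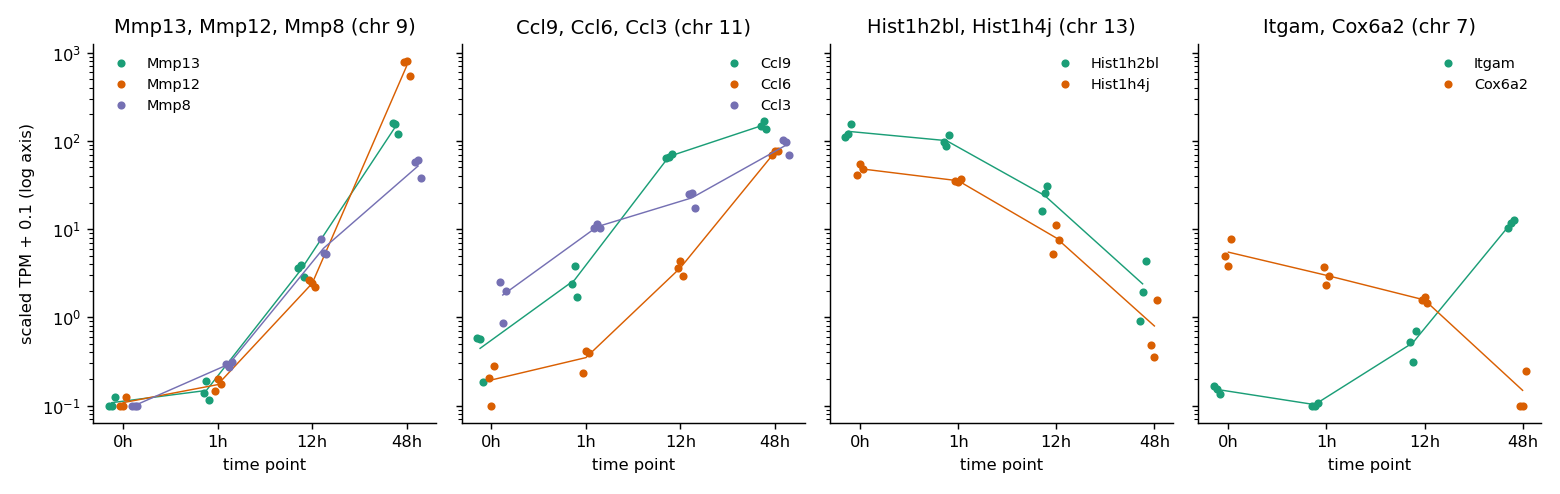
Scaled TPM + 0.1 (log axis) of the genes of 4 groups of promoter pairs in each of the 12 libraries, by time point, with lines through the means of 3 libraries. The Mmp and Ccl genes rise from at most 2.44 to between 37.5 and 802 scaled TPM at 48h, Hist1h2bl and Hist1h4j fall from above 40 to at most 4.23, and Itgam rises while Cox6a2 falls.

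Histone genes of the Hist1 cluster on chromosome 13, which encode replication-dependent histones, made the most pairs with both genes lower among the gene clusters examined. Their baits made 92 pairs within the cluster, with 72, 41, 35 and 59 of them in time order, and 24 at all 4 time points. In all 89 pairs with 2 tested genes both genes that stood for the baits were lower at 48h, against 6.87% of all pairs with tested genes. In 56 of the 89 both were Hist1 genes. In the others at least 1 bait was represented by a more abundant predicted gene in it (Gm44350, Gm44390, Gm44394 or Gm44454). Of 53 tested Hist1 genes 50 were lower, 1 (Hist1h2ao) was higher, and Hist1h2aj and Hist1h4m did not pass, with a median log2 fold change of -4.79, where 17.8% of all tested genes were lower and 20.1% higher. These genes are near-identical copies whose reads the estimate can divide between members, so the values of single genes are uncertain.

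Hist1h2bl was at 110, 120 and 155 scaled TPM at 0h and at 0.813, 1.85 and 4.23 at 48h, and Hist1h4j, 16.6 kb away, at 41.4, 55.1 and 48.5 and at 0.382, 0.251 and 1.46. The log2 fold changes were -6.01 (SE 0.45, adjusted p = 9.88e-07 from limma, Benjamini-Hochberg) and -6.23 (SE 0.46, adjusted p = 7.95e-07). This pair was listed at all 4 time points (7.23, then 40, 44 and 59 read pairs), so the contact was listed also when both genes were low. Hist1h4h and Hist1h3f, 16.4 kb apart, had the high 0h score of 45.37 and were listed again at 12h and 48h with 42 and 86 read pairs. Hist1h4f and Hist1h2bb, 195 kb apart, were listed at 0h only (5.41), and Hist1h4k and Hist1h3i, 34.0 kb apart, at 0h and 48h (6.35 and 18 read pairs). The pair of Hist1h2ag and Hist1h2ab spans the gap between the main blocks of the cluster, 1708.5 kb, and was listed at 48h only, from both ends, with 5 read pairs. The bait of Hist1h4h holds the starts of 6 genes and that of Hist1h2bb of 4, so the gene that stands for a bait is not its only one.

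Outside the histones, Selenoh, a nuclear selenoprotein, and Slc43a1, an amino acid transporter, were both lower at 48h and were listed together at 12h only, 161 kb apart with 13 read pairs. Selenoh went from 12.6, 12.5 and 11.4 scaled TPM at 0h to 0, 0 and 0.439, and Slc43a1 from 2.30, 3.37 and 3.22 to 0, 0 and 0.0266. The zinc finger genes (Zfp) made 205 pairs among themselves, and of 157 in which tested Zfp genes stood for both baits 2 had both lower and 0 both higher at 48h, against 6.87% and 3.18% of all pairs with tested genes. The olfactory receptor genes (Olfr), of which 69 of 1407 passed the filter, made 1193 pairs among themselves, 413, 357, 475 and 648 in time order, and 78 of these (6.54%) stood in all 4 lists, against 23.4% of all pairs.

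The other gene clusters gave fewer pairs of tested genes, and their counts of genes at 48h stand beside 20.1% higher and 17.8% lower among all tested genes. Both genes were higher in 3.18% of all pairs with tested genes. Of 24 tested H2- genes, which encode MHC proteins, 21 were higher at 48h with a median log2 fold change of 2.35, but of 13 tested pairs between their baits only that of H2-DMb2 and H2-Ob had both genes higher. Tested H2- genes stood for both baits in only 3 of these 13 pairs. In the rest at least 1 bait also holds the start of a more abundant gene that stood for it, Brd2 or Slc39a7. Neither of these was called. The pairs and genes of the H2-, Gbp and Clec4 groups were named after their values were seen. Of 14 tested genes whose symbol starts with Ifi2, 13 were higher, and both of their pairs had both genes higher. All 5 Fcgr genes, receptors for antibody, were higher and made no pair among themselves in 34 pairs. The Ms4a genes made 4 pairs (2 of 4 tested genes higher) and the Serpin genes, which encode protease inhibitors, 12 pairs (4 of 10 higher). The 403 genes whose symbol starts with Rpl or Rps made 5 pairs among themselves in 866, and 79 of 157 tested were lower and 5 higher. The symbol alone does not tell ribosomal protein genes from other genes with such a start. Of the Hox clusters, only Hoxb and Hoxc had a pair within, 1 each, and 7 Hoxb genes were tested, of which 1 was lower.

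Pairs whose genes went opposite ways were frequent, with 1585 of 3569 among pairs at 48h whose symbols differ in their leading letters. The bait of Itgam, which encodes CD11b, a surface integrin of macrophages, and that of Cox6a2, a subunit of mitochondrial cytochrome c oxidase, lie 142 kb apart on chromosome 7 and were listed at all 4 time points (9.11, then 27, 19 and 19 read pairs). Itgam went from 0.0679, 0.0543 and 0.0357 scaled TPM at 0h to 10.3, 11.7 and 12.5 at 48h, and Cox6a2 from 4.85, 3.73 and 7.57 to 0, 0 and 0.146. Itgam had 11 promoter pairs in all. Of its partners Tgfb1i1 was also higher at 48h and Pycard, in the lists of 12h and 48h with 26 and 54 read pairs, was not called, and these partners were named after their values were seen. Ctsd, the lysosomal protease cathepsin D, and H19, an imprinted non-coding RNA, were listed at 0h only (score 7.50), 190 kb apart. Ctsd went from 5.06, 5.14 and 6.29 to 140, 146 and 203, and H19 from 336, 348 and 358 to 1.498, 0.725 and 0.984. In the other 2 pairs of this kind, Ube2l6, the conjugating enzyme of ISG15, was higher while Selenoh was lower (listed at 12h, 10 read pairs), and Isg20, an interferon-induced exonuclease, was higher while Fanci, of the Fanconi repair pathway, was lower (listed at 1h, 7 read pairs).

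At 12h the largest joint changes again included the pairs Mmp13 and Mmp8 and Cd300lb and Cd300ld. The third was Cd74, the invariant chain of MHC class II, with Csf1r, the receptor of CSF-1, 306 kb apart on chromosome 18 and listed at all 4 time points (8.70, then 16, 10 and 10 read pairs). Csf1r was at 0.136, 0.467 and 0.310 scaled TPM at 0h and 8.62, 8.60 and 8.06 at 12h, and Cd74 at 0, 0.565 and 0.453 and at 7.67, 7.41 and 7.46. By 48h Cd74 was at 209, 221 and 224 and Csf1r at 23.3, 25.8 and 30.5. Among the joint decreases, H19 and Tnni2, a troponin subunit, were listed at all 4 time points 137 kb apart, and Tnni2 went from 12.0, 15.2 and 14.7 at 0h to 0.844, 1.22 and 3.13 at 12h. Mcm2, a subunit of the replicative helicase, went from 20.1, 24.2 and 34.3 to 1.68, 3.01 and 2.71, and its pair with Txnrd3, a thioredoxin reductase 749 kb away, stood in the lists of 0h (14.63) and 1h but in neither later one. Adgrg1, an adhesion receptor, and Drc7, a dynein regulator, 68.5 kb apart, were listed at 12h only and both lower.

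At 1h, when 23 pairs had both genes higher and 61 both lower, Ccl9 and Ccl3 led the increases. Nfe2, a hematopoietic transcription factor, and Gpr84, a receptor for medium-chain fatty acids, 53.3 kb apart on chromosome 15, followed. Gpr84 went from 0, 0.0761 and 0.179 scaled TPM to 6.38, 6.62 and 6.20 at 1h and 21.6, 21.7 and 21.4 at 12h, and came back to 1.74, 2.30 and 2.01 at 48h, and the pair was listed at 0h, 1h and 12h and not at 48h. Gsap, a regulator of γ-secretase, and Ptpn12, a tyrosine phosphatase, 123 kb apart, were listed only at 12h and 48h, after both had risen at 1h. The decreases held the cytokine receptors Il4ra and Il21r, 50.25 kb apart, which were listed at 12h and 48h. Il21r was at 2.12, 2.59 and 2.32 at 0h and at 0.193, 0.177 and 0.226 at 1h, a log2 fold change of -3.03 (SE 0.24, adjusted p = 2.40e-05 from limma, Benjamini-Hochberg). Il4ra was at 0.539, 1.00 and 0.611 at 1h and at 8.13, 6.89 and 6.65 at 48h, above its 0h level of 4.59, 2.50 and 2.97. This last change was 1.13 on the log2 scale, and 0.93 and under the limit of 1 without 0h replicate 2. Tmem173, the cytosolic DNA-signalling protein STING, and Cxxc5, a CXXC zinc finger protein, were listed at 0h, 1h and 12h, and Ttll11, a tubulin-modifying enzyme, and Ptgs1, the cyclooxygenase COX-1, at 0h and 48h.

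None of the 58 promoter pairs of the Pre-B genes (13 of 14 genes had a pair) joined 2 of these genes at separate baits. The 14 genes are those of surface receptors, the pre-B receptor, its signalling and its regulators (such as Cd79a, Vpreb3, Pax5 and Rag1), and 13 of them were lower at 48h, where Blnk, an adaptor of the B cell receptor, had a log2 fold change of -0.47 and did not pass. Their pairs numbered 33, 35, 26 and 25 in time order. Of 45 tested partner genes 6 were higher and 10 lower at 48h (13.3% and 22.2%, against 20.1% and 17.8% of all genes). Cd79b, a chain of the B cell receptor, was listed with Icam2, an adhesion molecule, at all 4 time points (22.46, then 64, 36 and 45 read pairs). Its pair with Ern1, a sensor of unfolded proteins that was higher at 48h (log2 fold change 2.82), stood in the lists of 1h and 12h. Pax5, the regulator of B cell identity, was listed with Zcchc7 at all 4 (10.85, then 83, 64 and 174). Pax5 was lower at 48h, but its promoter pairs went from 3 at 0h to 5 at 48h. Rag1 and Rag2, which cut DNA in receptor gene assembly, had 2 and 4 promoter pairs, of which none was left at 48h. Those listed at 0h had scores of 5.81 to 7.65. These single pairs were named after their values were seen.

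The baits of 10 of the 14 macrophage genes made 72 promoter pairs, whereas Lyz2 had no bait and those of Adgre1, Ctsc and Msr1 no pair, with 42, 41, 43 and 44 in time order. All 13 of those tested were higher at 48h, and Adgre1, below the filter, was at 0, 0 and 0.386 scaled TPM. Of 50 tested partner genes 11 were higher and 8 lower at 48h (22.0% and 16.0%, against 20.1% and 17.8% of all genes). Cebpb, itself a C/EBP factor, was listed at all 4 time points with Ube2v1, which did not pass the test, and with the phosphatase gene Ptpn1 (8.27, then 13, 8 and 9 read pairs), which was higher (log2 fold change 1.78), partners named after their values were seen. Spi1, the gene of the myeloid factor PU.1, had 5 promoter pairs and went from 8.38 ± 0.332 to 40.5 ± 3.98 scaled TPM (SD, n = 3 each), while none of its 5 partners was called. The bait of Cd14, a receptor for lipopolysaccharide, had 6 pairs, 4 at 0h and all 6 at 48h, and that of Cd68, a lysosomal glycoprotein, had 10, all in the 0h list and 2 in that of 48h. Cd14 was listed at 0 in all 0h libraries and at 57.7, 58.8 and 81.9 at 48h, and Cd68 went from 2.74, 2.68 and 2.096 to 24.2, 25.2 and 28.4, so the count of promoter partners rose beside one and fell beside the other.

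Of the pairs at least 1 Mb apart, 53 stood in all 4 lists, and the 4 longest of them are named here. Fam120a on chromosome 13, a gene of an RNA-binding scaffold, was listed with Tbce, a tubulin-folding cofactor 34924 kb away, with a 0h score of 34.11 and 9, 6 and 5 read pairs, and with the neighbouring bait of Arid4b, a chromatin protein 34902 kb away, with 51.5 and 9, 9 and 8. Sec23a, of the COPII coat, and Togaram1, a microtubule protein, lay 5954 kb apart on chromosome 12 (15.77, then 10, 5 and 6) and Med17, of Mediator, and Chordc1, a chaperone partner, 3011 kb apart on chromosome 9 (39.15, then 13, 7 and 9). All 4 were listed from both ends at 1h and 12h. Of these 7 genes only Arid4b was called at 48h, from 2.17, 2.05 and 1.66 scaled TPM at 0h to 5.07, 5.26 and 4.18 (log2 fold change 1.26, SE 0.16, adjusted p = 5.80e-05 from limma, Benjamini-Hochberg), and without scaling its change was 0.86 and not past the threshold.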

How the data were processed

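PCHi-C pairs were analysed from 4 deposited lists, 1 per time point, each from 2 merged replicates that the authors mapped to mm10 with HiCUP and called with CHiCAGO at a score of 5 or more. The 0h list holds the CHiCAGO score as deposited by the authors and lists a pair of baits once. The later lists hold whole numbers with no unit given, and these were read as the counts of read pairs deposited by the authors, since 25742 of 25744 pairs listed from both ends had the same value at each end. RNA-seq values are TPM that the authors computed with RSEM after trimming with Trim Galore and alignment with HISAT2, and no raw counts of reads were used. Hi-C libraries were not used here, and 0 columns of samples were left out of the TPM table.

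TPM were divided by median-of-ratios size factors and tested with limma 3.58.1 (R 4.3.3) on log2(scaled TPM + 0.1) in a fit of all 12 libraries with trended variance, with Benjamini-Hochberg adjustment over 16212 genes with a mean of 0.1 scaled TPM or more. Labels call the replicates biological and say no more, so p-values measure the spread between these samples. Shares have 95% Wilson intervals and medians have order-statistic intervals, both for counting error only. Distances run between fragment midpoints. Python 3.11.15, numpy 2.4.6, pandas 2.3.3, scipy 1.17.1 and networkx 3.6.1 were used, and the fit was tested on simulated data.

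The pairs and gene lists were chosen with earlier results of these data known. Named pairs are those with both genes called, no overlap between libraries, a mean of 1 scaled TPM or more and the largest smaller change of the 2 genes, with each gene used once (8 higher, 6 lower and 4 opposite at 48h, and 3 each way at 12h and 1h), the 4 longest pairs in all lists, the 4 baits with most partners, and the genes of the Pre-B, macrophage and cluster lists. Alternatives covered the bait definition, distance, matching between lists, scaling, pseudocount, filter, thresholds, the gene of a bait, leaving out each replicate and a replicate block. 1 gene of the Pre-B list is not reported here by name.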

Additional observations from a re-analysis of the deposited data

How the results depend on the processing

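Of the alternative values, 309 moved by less than the limits set for them and 108 by more. With baits defined within each list alone, pairs of baits made up 15.8%, 16.8%, 16.8% and 13.7% of the pairs listed in time order, and 22.9% stood in all 4 lists. With baits required in all 4 lists, the shares were 14.0%, 14.6%, 14.1% and 11.6%, the median distances 179, 175, 154 and 160 kb, the share in all lists 29.1% and that of 0h pairs listed at 48h 61.7%, and both genes were at 1 scaled TPM or more in 40.3%, 37.2%, 34.9% and 31.3% of the pairs. Leaving out pairs under 20 kb gave medians of 196, 191, 168 and 173 kb, 22.6% in all lists and 56.5% of 0h pairs at 48h, and distance between nearest ends gave medians of 179, 174, 149.1 and 155 kb. Matching within 10 kb gave 40.3% in all lists, 70.4% of 0h pairs at 48h and a median log2 fold change of 0.078 for pairs gained. With a 0h listing counted only from a score of 10, 11.4% of the pairs of any list stood in all 4. Of the 0h pairs with such a score, 85.9% were listed at 48h.

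Without scaling, 1464 genes of pairs were called at 1h, 380 pairs went the same way at 1h, the same-way shares were 85.8%, 65.5% and 67.3% at 1h, 12h and 48h, the median changes were -0.35 for pairs gained and -0.62 for pairs lost, the median r was 0.39, and both genes were expressed in 37.1%, 39.9%, 34.2% and 23.5%. This scaling shifted the median of all genes by 0.57 at 1h, 0.27 at 12h and -0.27 at 48h. Rescaling without the 20 most abundant genes gave -0.054 and -0.32 for pairs gained and lost and r = 0.14. A pseudocount of 1 gave 322, 1222 and 2411 genes at 1h, 12h and 48h, 36, 328 and 1103 pairs the same way, shares of 63.1% and 60.2% at the later 2, and -0.18 for pairs lost. A log2 fold change beyond 2 gave 146, 652 and 1569 genes, 4, 132 and 534 pairs and shares of 57.1%, 76.3% and 65.8%. The adjusted p alone gave 1115 and 3358 genes at 1h and 12h, 251, 1794 and 3755 pairs, and shares of 54.6% at 12h and 54.6% at 48h. Every gene of a bait gave 127, 1281 and 3562 pairs, shares of 60.9% and 59.2% at 12h and 48h, and 25.4%, 22.9%, 21.03% and 18.6% with both genes expressed. Leaving out shared leading letters gave 55.0% and 55.6% at 12h and 48h, and 39.97%, 36.4%, 33.7% and 30.1% with both expressed. A level of 5 scaled TPM gave 8.54%, 6.66%, 6.50% and 5.96%. No filter gave -0.21 for pairs lost and r = 0.060, a mean of 1 or more -0.31 and 0.085, and pairs gained at 12h and 48h only 0.12. The pairs gained stood above the pairs lost under each alternative in which this difference was computed.

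Leaving out 1 library at a time gave 504 to 695, 1971 to 2224 and 3566 to 3790 genes called at 1h, 12h and 48h. Pairs going the same way ranged from 47 to 94, 607 to 825 and 1957 to 2356, and their shares from 69.5% to 77.4%, 55.8% to 59.5% and 56.0% to 58.7%. At 1h, 52 pairs were left without 0h replicate 2 and 47 without 1h replicate 2, against 84. The median r was 0.06 to 0.08, and the changes were -0.047 to 0.064 for pairs gained and -0.33 to -0.20 for pairs lost. Replicate numbers were not taken to pair the libraries, since the correlation of deviations between same-numbered libraries was over 0.1 in 8 of 18 pairs and not in all. It was above 0 in 17 of the 18, and the replicate 3 libraries stood out, with 5 of their 6 pairs over 0.1 and all 24 correlations with other numbers below 0. In all, 7 of 12 libraries correlated best with their own number. With the number as a replicate block, 653, 2171 and 3735 genes were called (651, 2157 and 3710 without). Of the genes named, Arid4b and Il4ra lost their 48h call without scaling, 21 of 31 kept their 1h call and 65 of 69 their 12h call, and none changed sign. The comparison of listed with unlisted combinations under the other scalings was added after seeing the data. The lists have no replicates and their depth was not used, so a contact absent from a list was not detected there, and pairs just under the score of 5 were not seen.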
